A study of Saccharomyces cerevisiae with 48 samples.

Results

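RNA polymerase II peaks at least 2000 bp wide were examined in budding yeast in S phase. They were chosen from the wild-type (WT) list of Rpb1 peaks as all peaks whose end minus start was 2000 bp or more. This took 291 of 2037 peaks, called wide domains below. The same loci were then followed in the sen1, rrm3 and sen1rrm3 lists. The choice used widths in WT, so every width set against WT is a description of chosen peaks.

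The series holds 48 libraries, of which 24 are inputs that were not analysed here and 24 are immunoprecipitates or pull-downs with a peak list each. Rpb1, the largest RNA polymerase II subunit, was immunoprecipitated with the antibody 8WG16 from sen1, rrm3, sen1rrm3 and WT cells. These cultures grew in YPG, were held in G1 with alpha-factor in YPD and were released into S phase at 23 °C, with harvest at 45 to 50 min. Pull-down of biotinylated trimethylpsoralen (bTMP) covered those 4 strains under each of 3 conditions, namely S phase, log phase (with sen1top1, rrm3top1, sen1rrm3top1 and top1 besides) and 32 °C (with sen1top2-1, rrm3top2-1, sen1rrm3top2-1 and top2-1 besides). The labels give the genotypes as these names, and the sources used here do not say which sen1 and rrm3 alleles were carried. Log-phase cultures spent 2.5 h in YPD. Each group has 1 library, so no difference has a replicate check and no p-value is given.

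RNA polymerase II transcribes all protein-coding genes, and Rpb1 carries its catalytic centre. A stretch of continuous Rpb1 signal forms where polymerases follow each other along a gene, or where active genes lie close together. Sen1 is a helicase that releases the polymerase at the ends of short non-coding transcripts, working with Nrd1 and Nab3. Rrm3 is a helicase that helps replication forks past proteins bound to DNA. bTMP slips between the strands of under-wound DNA more readily than into relaxed DNA. Moving polymerases leave under-wound DNA behind them and over-wound DNA ahead, and topoisomerases I and II (top1, top2) remove both.

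The wide domains held 847888 of the 2277400 bp under WT Rpb1 peaks, which is 37.2%, and 7.03% of the 12.06 Mb nuclear genome. Their median width was 2596 bp, with quartiles of 2253 and 3248 bp, against 663 bp for the 1746 narrower peaks. The authors' peak score ranks peaks within a list, and the median rank of the wide domains was at the percentile 77.5, against 43.2 for the narrower peaks. Some lay low in the list, the lowest at the percentile 26.4. All 16 nuclear chromosomes carried wide domains, from 3 on chromosome VI to 40 on chromosome IV. Just inside the threshold were peaks named for SUR1 and IME4, both 2001 bp, and HLR1, 2004 bp. Just outside were TAT2 at 1998 bp, RPS26B at 1996 bp and OCH1 at 1995 bp. A domain is named here by the protein-coding gene with the most base pairs inside it.

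The 10 widest domains lay over long genes of several functions. The widest, 8324 bp on chromosome XI from 100573 to 108896, held FAS1, the beta subunit of fatty acid synthase, together with PRS1, a phosphoribosyl-pyrophosphate synthetase. URA2, which starts pyrimidine synthesis, filled a domain of 7451 bp (X, 165733 to 173183). ACC1, the acetyl-CoA carboxylase that feeds fatty acid synthase, filled 7404 bp (XIV, 654296 to 661699). FAS2, the alpha subunit of fatty acid synthase, had 5835 bp (XVI, 108720 to 114554), so both subunits of that enzyme and the carboxylase before it were among the 10.

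The largest subunits of 2 RNA polymerases were also there. RPA190, of RNA polymerase I, lay with YOR342C in a domain of 6763 bp (XV, 960998 to 967760). RPO21 is the gene of Rpb1 itself and had 5614 bp (IV, 205013 to 210626). The remaining domains of the 10 held FKS1, a glucan synthase of the cell wall, at 6592 bp; MOT1, which removes the TATA-binding protein from DNA, at 5538 bp; RPG1, a subunit of translation factor eIF3, with the cell wall gene ECM33 at 5501 bp; and PSE1, a nuclear import receptor, with GAS1, a glucan-remodelling enzyme, at 5263 bp.

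In all, 385 protein-coding genes lay with at least 50% of their body inside a wide domain, and 202 of them lay wholly inside. That is 6.42% of the 6002 genes in the table used. These genes were long, with a median of 1701 bp against 894 bp for the 853 genes likewise inside narrower peaks and 1200 bp for all genes. A gene of 2000 bp or more can fill a wide domain alone, and a short gene cannot, so gene length is tied to the rule. Long genes alone did not make up the set. The longest gene inside was 2000 bp or more in 137 domains, 68 domains held several shorter genes, and 78 held 1 shorter gene with flanking DNA. Conversely, of the 1326 genes of at least 2000 bp, 138 lay in a wide domain (10.4%).

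**Figure D1:**
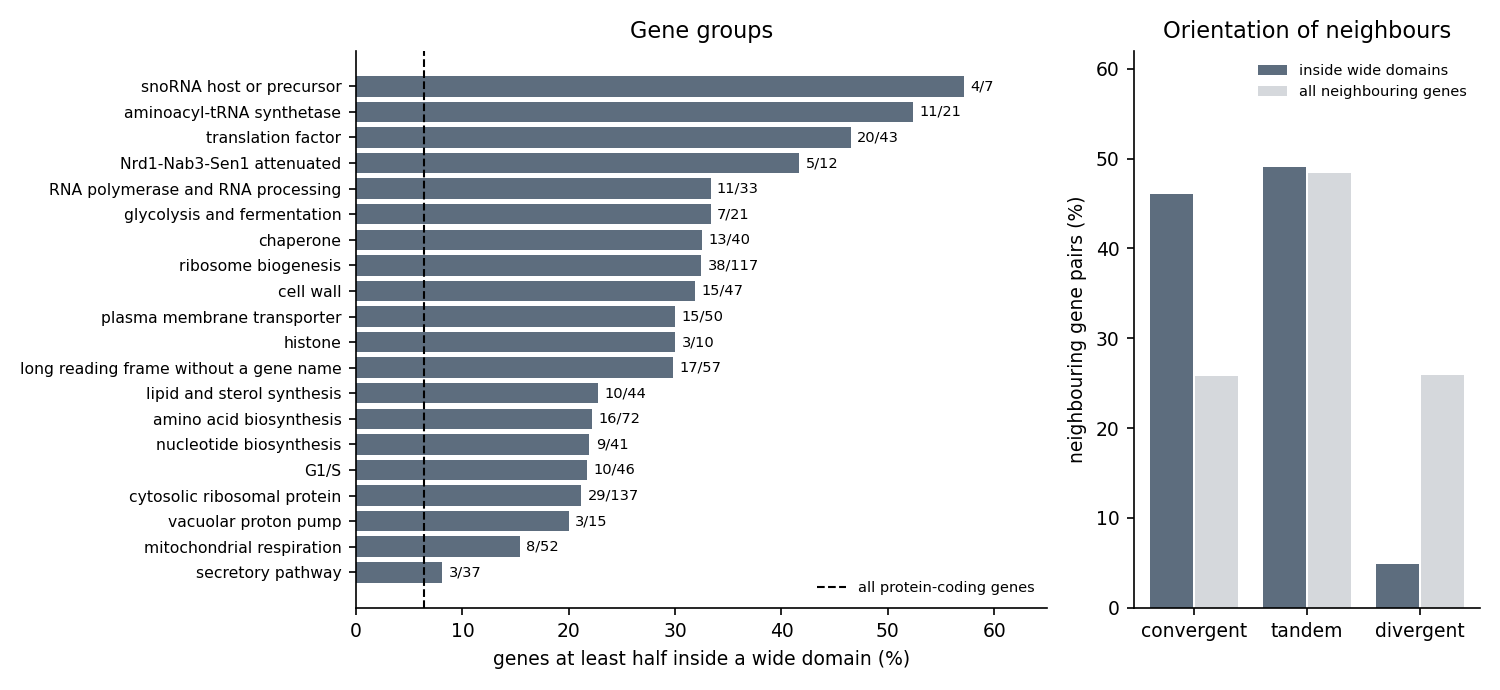
Left, share of the genes of each list lying with at least 50% of their body inside a wide WT Rpb1 domain (percent, with the counts beside each bar and the value for all 6002 protein-coding genes as a dashed line). Right, share of neighbouring gene pairs by orientation inside wide domains (102 pairs) and over all neighbouring genes (5986 pairs); convergent pairs made up 46.1% inside, against 25.8% over all pairs.

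Genes of protein synthesis had high shares inside wide domains. Of 21 aminoacyl-tRNA synthetase genes, which charge tRNAs with amino acids, 11 lay inside wide domains (52.4%), led by CDC60 (leucine, domain of 3567 bp), VAS1 (valine, 3430 bp), ILS1 (isoleucine, 3221 bp) and FRS1 (phenylalanine, 2750 bp). Of 43 translation factor genes, 20 lay inside (46.5%). They included RPG1, the helicase gene DED1 (3853 bp), the elongation factor gene YEF3 (3716 bp) and NEW1, an ATPase acting on ribosomes (3843 bp). Of 117 ribosome biogenesis genes, which process ribosomal RNA and assemble the subunits, 38 lay inside (32.5%), the widest domains being those of RRP5 (5193 bp) and UTP10 (5161 bp).

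Of the 137 cytosolic ribosomal protein genes, with a median length of 771 bp, 29 lay inside (21.2%), although 136 of the 137 had at least 50% of their body under a WT Rpb1 peak of some width. Other lists with high shares were chaperones with 13 of 40 (32.5%), glycolysis and fermentation with 7 of 21 (33.3%; PFK1, PFK2, PDC1 and PGI1 in the widest), cell wall genes with 15 of 47 (31.9%) and plasma membrane transporters with 15 of 50, or 30.0%. Of 12 genes known to be attenuated by Nrd1, Nab3 and Sen1, 5 were inside, namely URA2, CLN3, HRP1, IMD3 and NRD1. Of the 7 snoRNA host or precursor genes, 4 were inside. Genes of RNA polymerases and RNA processing had 11 of 33 inside, histones 3 of 10, lipid and sterol synthesis 10 of 44, amino acid biosynthesis 16 of 72, nucleotide biosynthesis 9 of 41 and G1/S genes 10 of 46. At the low end stood mitochondrial respiration with 8 of 52 (15.4%) and the secretory pathway with 3 of 37 (8.11%), the second of them near the 6.42% of all genes. The last 2 lists have short genes, with median lengths of 643.5 and 933 bp, while the aminoacyl-tRNA synthetase genes have 1824 bp. The shares were not adjusted for gene length, and the lists were drawn up with earlier results known.

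Most domains were single genes. In 192 of the 291 (66.0%) exactly 1 gene lay at least 50% inside, in 43 the genes stood in tandem on 1 strand, in 39 they converged, in 2 they diverged, in 7 they were mixed, and in 8 no gene reached 50%. The 2 divergent domains were FRS1 with REX2 and IME4 with YGL193C. The most crowded domains held 4 genes each. UIP5, YKR045C, PLN1 and NAP1 shared 4394 bp on chromosome XI (521999 to 526392). RPS9A and RPL21B, both for ribosomal proteins, lay with YPL080C and ATP4, of the mitochondrial ATP synthase, in 3749 bp on chromosome XVI (404787 to 408535). RPL29, MIN10, QCR6 and PHO4, the phosphate-response activator, ran on 1 strand through 3238 bp on chromosome VI (222776 to 226013). RNR1, the large subunit of ribonucleotide reductase, shared 4725 bp with TDA2 and VTC1, and the helicase gene DBP2 shared 4455 bp with RPC19 and CYB5.

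Neighbours inside a domain were seldom divergent. Of 102 neighbouring pairs inside, 47 were convergent (46.1%), 50 tandem (49.0%) and 5 divergent (4.90%). Over all 5986 neighbouring pairs of the genome the shares were 25.8% convergent, 48.4% tandem and 25.9% divergent. The stretch between convergent neighbours inside domains had a median of 319 bp, against 226 bp over the genome. Non-coding genes were few, with a snoRNA gene in 12 wide domains and a tRNA gene in 7.

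The edges of the domains sat differently at gene starts and gene ends. An edge was called start-side where the outermost gene inside the domain began there and end-side where that gene finished there, with strand read from the systematic names. There were 332 start-side and 248 end-side edges, and 2 edges had no gene. Start-side edges had a median offset of -18.5 bp from the gene, where a negative value is inside it, and 46.1% of them lay outside. At narrower peaks the median start-side offset was -292 bp, and 20.3% of those edges lay outside the gene. End-side edges of wide domains lay a median of 350 bp beyond the end of the gene, and 84.7% of them lay outside it. The gene table appears to give genes as reading frames, so transcribed ends outside the reading frame are not counted as gene. Their part in these offsets and in the stretches between neighbours was not tested. The gene table and the peaks could be offset against each other by a small distance without this being seen, so the start-side value is not distinguishable from the gene start itself.

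The mutant lists were similar to WT in size, with 302 peaks of 2000 bp or more of 2136 in sen1, 301 of 2039 in rrm3 and 303 of 2016 in sen1rrm3. They covered 20.2%, 18.9% and 19.4% of the nuclear genome, against 18.9% in WT. RRM3 lay under Rpb1 peaks over 0% of its body in both rrm3 and sen1rrm3, over 51.0% in sen1 and over 14.9% in WT. For each wide domain, the mutant extent was taken from the start of the first to the end of the last mutant peak sharing at least 1 bp with it, and a change was counted from 500 bp on.

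Most wide domains kept their width in every mutant. In 222 of the 291 the extent stayed within 500 bp of WT in all 3 mutants, and 239 were at least 2000 bp in all 3. In sen1, 31 were wider (10.7%, exact 95% binomial interval 7.35% to 14.8%, counting error only; 17.4% over all 2037 WT peaks), 23 were narrower (7.90%; 4.42% over all) and 2, OPT1 and RPM2, had no peak. In rrm3, 8 were wider (2.75%; 6.53% over all) and 1 was narrower, HLR1 (1.13% over all). In sen1rrm3, 26 were wider (8.93%; 16.9% over all), 24 were narrower (8.25%; 4.32% over all) and 1, SIT1, had no peak. Peaks narrower than 500 bp cannot narrow by that much, and the domains were picked for their width in WT, so nothing is read from these shares.

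Median differences were -52 bp in sen1, 23 bp in rrm3 and -69.5 bp in sen1rrm3, each relative to WT. The sen1rrm3 and rrm3 lists differed by a median of -93 bp (sen1rrm3 minus rrm3). Of the 291, 24 were wider in sen1rrm3 than in rrm3 (8.25%; 12.7% over all WT peaks) and 34 were narrower (11.7%; 7.02% over all). The limit on small peaks holds here too, and rrm3 lay within 500 bp of WT at 282 of the 291, so nothing is read from these shares either. Chosen instead in the sen1rrm3 list, 303 peaks were wide, and at these loci WT was wider in 24 and narrower in 39.

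**Figure D2:**
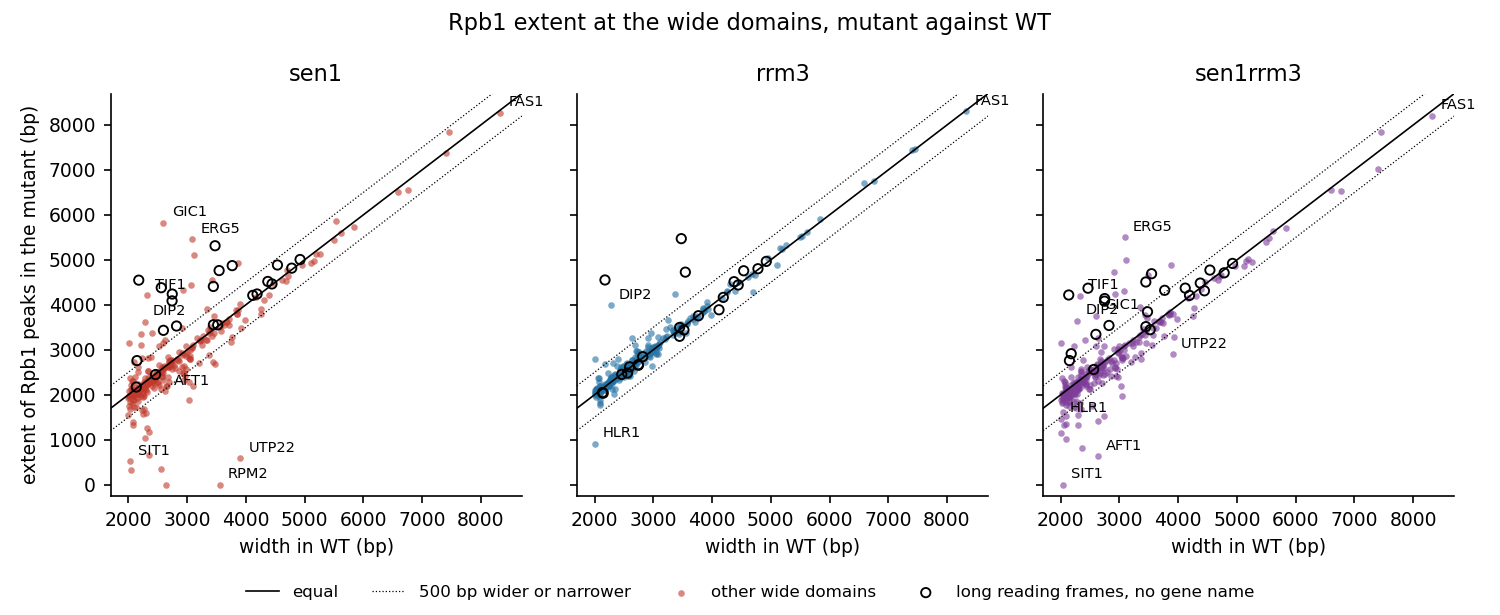
Extent of Rpb1 peaks at each of the 291 wide domains in sen1, rrm3 and sen1rrm3 (vertical, bp) against its width in WT (horizontal, bp). Points are domains, rings are domains over long reading frames without a gene name, the solid line marks equality and the dotted lines a change of 500 bp. The rrm3 points lie close to the line, with 8 domains wider and 1 narrower, while sen1 and sen1rrm3 have points on both sides.

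All 10 of the widest domains had extents within 500 bp of WT in sen1, rrm3 and sen1rrm3. Among the 93 domains of 3000 bp or more, however, 10 were wider (10.8%) and 7 narrower (7.53%) in sen1, close to the 10.7% and 7.90% of all wide domains. FAS1 measured 8273 bp in sen1, 8311 bp in rrm3 and 8207 bp in sen1rrm3, against 8324 bp in WT, though in sen1 and sen1rrm3 its extent held 2 peaks. RPO21 measured 5595, 5620 and 5652 bp in sen1, rrm3 and sen1rrm3, against 5614 bp in WT, as 3 peaks in sen1 (the single one 3447 bp) and 2 in sen1rrm3. URA2 measured 7840 bp in sen1, 7457 bp in rrm3 and 7851 bp in sen1rrm3, against 7451 bp in WT, under the 500 bp that counted as a change. Gaps opened inside other domains too, since the extent held at least 2 peaks in 63 domains in sen1, 32 in rrm3 and 51 in sen1rrm3, while every domain is 1 peak in WT by its definition. Over all 2037 WT peaks this was so at 108 in sen1, 84 in rrm3 and 87 in sen1rrm3. A wider peak offers more room for a gap, so nothing is read from these counts. Counted by the single mutant peak that shares most with the domain, 80 wide domains were narrower in sen1, 30 in rrm3 and 69 in sen1rrm3. By this reading a split can count as narrowing, and the share over all WT peaks was not computed.

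Most edges moved by less than 250 bp. The median shift, with negative values inward, was -4 bp at end-side and -43 bp at start-side edges in sen1, 15 and 2 bp in rrm3, and -7 and -41 bp in sen1rrm3. At end-side edges, 31 lay at least 250 bp further out in sen1 (12.6%; 14.5% over all WT peaks) and 19 further in (7.72%; 5.56% over all). In sen1rrm3 the counts were 30 (12.2%; 15.1% over all) and 15 (6.07%; 4.08% over all), and in rrm3 15 (6.05%; 8.25% over all) and 2 (0.806%; 2.11% over all). At start-side edges, 13 lay further out in sen1 (3.94%; 15.7% over all) and 36 further in (10.9%; 7.94% over all). In sen1rrm3 these were 11 (3.32%; 15.1% over all) and 45 (13.6%; 10.7% over all), and in rrm3 3 (0.904%; 4.46% over all) and 6 (1.81%; 3.43% over all). These contrasts use the WT edges of domains chosen in WT, so nothing is read from the shares. Domains over convergent genes, where both edges are gene starts, had median differences of -177 bp in sen1, 6 bp in rrm3 and -216 bp in sen1rrm3. Of these 39, 7, 1 and 8 were narrower and 2, 0 and 2 were wider in sen1, rrm3 and sen1rrm3. Over all WT peaks 4.42%, 1.13% and 4.32% were narrower and 17.4%, 6.53% and 16.9% were wider. Over all 291 wide domains 23, 1 and 24 were narrower. The limits given above hold here too, so nothing is read from the counts at convergent genes.

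Widened extents could reach a neighbouring peak. Among domains other than those over long unnamed reading frames (described below), 20 were wider in sen1, 5 in rrm3 and 15 in sen1rrm3. In 12, 3 and 11 of these the extent reached a peak that was separate in WT. Over all widened WT peaks the share that did so was 56.3% in sen1, 84.2% in rrm3 and 65.5% in sen1rrm3. With the long unnamed reading frames kept in, the counts were 22 of 31 in sen1, 6 of 8 in rrm3 and 21 of 26 in sen1rrm3. The numbers are small and the domains were chosen in WT, so nothing is read from these counts. In 7 of the 20 in sen1, 1 of the 5 in rrm3 and 5 of the 15 in sen1rrm3 the extent held at least 2 separate peaks. The added stretch lay under no WT peak for a median of 577.5 bp in sen1, 372 bp in rrm3 and 619 bp in sen1rrm3. A protein-coding gene lay under the added stretch in 13, 3 and 10 of them and a snoRNA gene in 3, 0 and 3.

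The ERG5 domain, which holds the sterol desaturase gene ERG5 and the convergent gene BUD22 (XIII, 299422 to 302510), measured 5462 bp in sen1, 3293 bp in rrm3 and 5509 bp in sen1rrm3, against 3089 bp in WT. In both sen1 strains it was continuous with the separate WT peak over the snoRNA genes SNR72 to SNR78, and only 517 bp of the added stretch lay under no WT peak. The TIF1 domain, with the gene of translation factor eIF4A and UTP30 (XI, 554988 to 557307), measured 4222 bp in sen1, 2297 bp in rrm3 and 4206 bp in sen1rrm3, against 2320 bp in WT. There the added stretch covered KTR2, a mannosyltransferase gene, and SNR42, with 1260 bp under no WT peak.

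The ILV3 domain, with the branched-chain amino acid gene ILV3 and ESS1, an isomerase acting on the tail of Rpb1 (X, 463976 to 467087), had extents of 5115 bp in sen1, 3168 bp in rrm3 and 4996 bp in sen1rrm3, against 3112 bp in WT. The GIC1 domain (VIII, 221014 to 223609) with GIC1, an effector of the polarity GTPase Cdc42, and the RNase P gene RPP1 had extents of 5827 bp in sen1, 2653 bp in rrm3 and 3760 bp in sen1rrm3, against 2596 bp in WT. In both cases the extent in each sen1 strain spanned 2 separate peaks. Read by the single peak that shares most with the domain, the difference from WT turned negative at ILV3, to -818 bp in sen1 and -834 bp in sen1rrm3, and at GIC1, to -1187 bp in sen1. DIP2, a gene of the small-subunit processome (XII, 399872 to 402148), was wider in all 3 mutants, with 3629 bp in sen1, 3995 bp in rrm3 and 3651 bp in sen1rrm3, against 2277 bp in WT, having reached the separate peak over ZRT2, a zinc transporter gene. In rrm3 that extent held 3 peaks, and the single peak differed from WT by -1441 bp.

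Fewer domains were wider in rrm3. GDS1 (XV, 1003926 to 1005932) measured 3151 bp in sen1, 2801 bp in rrm3 and 3141 bp in sen1rrm3, against 2007 bp in WT. SYG1 (IX, 264499 to 267868) was wider in rrm3 and not in the sen1 strains, with 2882 bp in sen1, 4235 bp in rrm3 and 2928 bp in sen1rrm3, against 3370 bp in WT. Widest in sen1rrm3 was the domain over the divergent histone genes HTA2 and HTB2, with ECM15 and part of UTP20 (II, 234591 to 237505), which measured 3474 bp in sen1, 3272 bp in rrm3 and 4733 bp in sen1rrm3, against 2915 bp in WT. Both sen1 strains had 2 peaks there, with single peaks of 1944 bp in sen1 and 3297 bp in sen1rrm3.

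**Figure D3:**
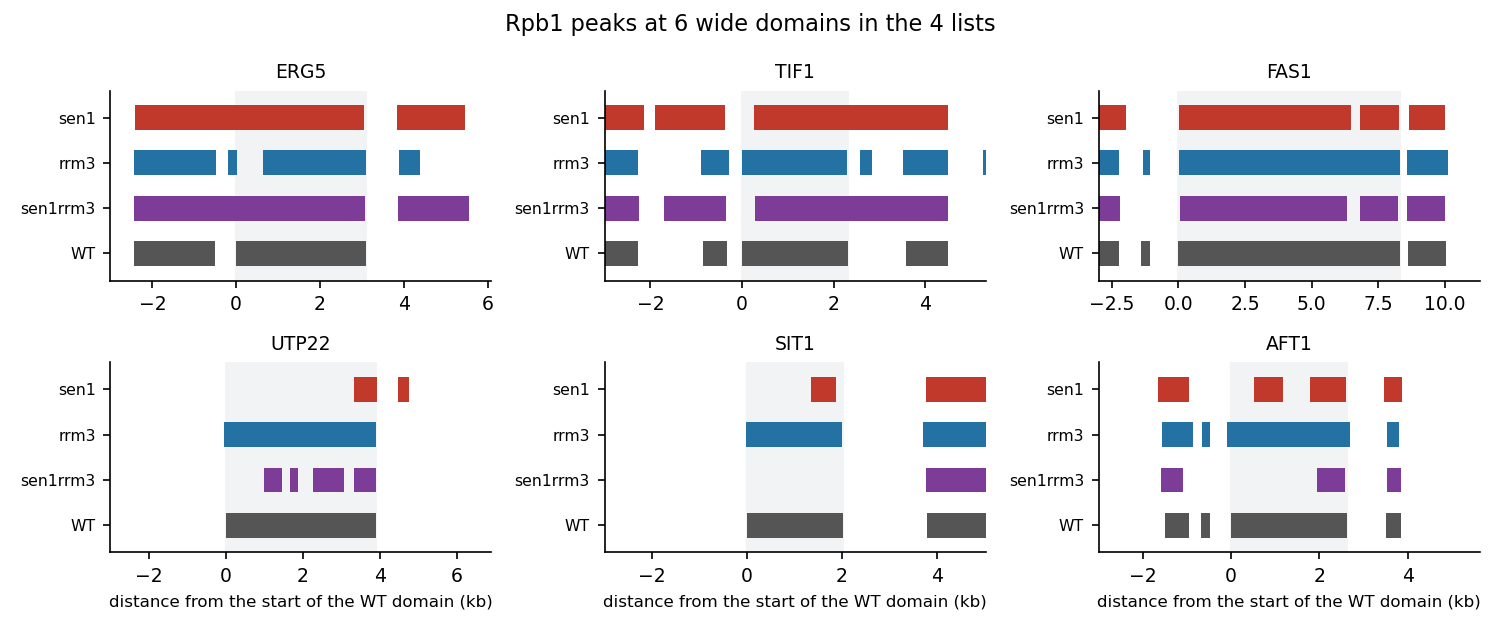
Rpb1 peaks at 6 wide domains in sen1, rrm3, sen1rrm3 and WT (rows), by distance from the start of the WT domain (kb); bars are peaks and the shaded stretch is the WT domain. ERG5 and TIF1 are wider in sen1 and sen1rrm3, FAS1 keeps its extent with a gap in both, and UTP22, SIT1 and AFT1 are shorter in sen1, sen1rrm3 or both, while rrm3 lies within 500 bp of WT.

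Several domains of varied function were shorter or absent in sen1. UTP22, of the small-subunit processome (VII, 662437 to 666344), had 584 bp in sen1, 3969 bp in rrm3 and 2909 bp in sen1rrm3, against 3908 bp in WT. UTP13, of the same complex (XII, 579398 to 581440), had 319 bp in sen1, 2158 bp in rrm3 and 1617 bp in sen1rrm3, against 2043 bp in WT. VTC2, of the vacuolar polyphosphate complex (VI, 131981 to 134542), had 339 bp in sen1, 2428 bp in rrm3 and 2269 bp in sen1rrm3, against 2562 bp in WT. RPM2, the protein subunit of mitochondrial RNase P (XIII, 87187 to 90743), had 0 bp in sen1, 3366 bp in rrm3 and 3108 bp in sen1rrm3, against 3557 bp in WT. The extents in sen1rrm3 held 4 peaks at UTP22, 2 at UTP13 and 3 at RPM2, whose single peak sharing most with the domain had 806, 835 and 1501 bp. The extents in rrm3 held 3 peaks at UTP13 and at RPM2, with single peaks of 948 and 1738 bp.

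Other domains were narrower or absent in sen1, in sen1rrm3 or in both. OPT1, an oligopeptide transporter (X, 33468 to 36101), had 0 bp in sen1, 2780 bp in rrm3 and 1408 bp in sen1rrm3, against 2634 bp in WT. SIT1, a transporter of iron-siderophore complexes (V, 27810 to 29839), had 522 bp in sen1, 2011 bp in rrm3 and 0 bp in sen1rrm3, against 2030 bp in WT. SMF3, a vacuolar metal transporter, shared its domain with RSC58 (XII, 209496 to 211850), which had 653 bp in sen1, 2120 bp in rrm3 and 807 bp in sen1rrm3, against 2355 bp in WT. AFT1, the activator of iron uptake genes (VII, 371891 to 374522), had 2079 bp in sen1, 2775 bp in rrm3 and 639 bp in sen1rrm3, against 2632 bp in WT; in sen1 this held 2 peaks, the single one being 800 bp. FET3, the ferroxidase of iron uptake, with SEN15 (XIII, 388722 to 391761), had 2285 bp in sen1, 3052 bp in rrm3 and 1967 bp in sen1rrm3, against 3040 bp in WT. PDR3, an activator of drug resistance genes (II, 218331 to 221067), was narrower in sen1rrm3 only, with 2690 bp in sen1, 2933 bp in rrm3 and 1527 bp in sen1rrm3, against 2737 bp in WT, although its extent in sen1 held 3 peaks with a single one of 1751 bp. FRE1, a ferric reductase gene named after its values were seen, had 2646 bp in sen1, 2662 bp in rrm3 and 2633 bp in sen1rrm3, against 2704 bp in WT.

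The 22 domains over long reading frames that carry no gene name included many of the widened ones. These frames of 3591 to 5272 bp are listed in the gene table by systematic name alone. Long reading frames in many near-identical copies are a feature of yeast Ty elements in general, the table does not annotate these as such, and reads could be shared between near-identical copies. This split was made after the values had been seen. The domains had widths of 2136 to 4924 bp with a median of 3463 bp. Of the 22, 11 were wider in sen1, 3 in rrm3 and 11 in sen1rrm3, and none was narrower or absent. Of the other 269, 20 were wider in sen1, 5 in rrm3 and 15 in sen1rrm3, while 23, 1 and 24 were narrower.

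Among them, YDR365W-B (IV, 1209485 to 1211662) had 4549 bp in sen1, 4553 bp in rrm3 and 2913 bp in sen1rrm3, against 2178 bp in WT. YML039W (XIII, 198616 to 202092) had 5314 bp in sen1, 5472 bp in rrm3 and 3846 bp in sen1rrm3, against 3477 bp in WT. YBL005W-B (II, 222377 to 225922) was long in all 3 mutants, with 4762 bp in sen1, 4727 bp in rrm3 and 4692 bp in sen1rrm3, against 3546 bp in WT. The widest, YGR027W-B (VII, 536930 to 541853), was steady at 5008, 4966 and 4921 bp in sen1, rrm3 and sen1rrm3, against 4924 bp in WT.

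bTMP was measured in other libraries than Rpb1, so its position at the domains is independent of their choice. In S phase, bTMP peaks covered 25.9% of the nuclear genome in sen1, 23.3% in rrm3 and 24.6% in sen1rrm3, against 17.5% in WT. Values below are therefore also given as relative cover, the share of base pairs under bTMP peaks divided by that genome share. An edge was scored as having a bTMP peak where one lay within 250 bp on either side, and the interior was the domain less 250 bp at each edge.

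bTMP peaks lay more often at start-side than at end-side edges, at wide domains as well as over all WT Rpb1 peaks. Of the 332 start-side edges of wide domains, 189 had a bTMP peak in sen1 (56.9%, exact 95% interval 51.4% to 62.3%; 51.5% over all WT Rpb1 peaks), 190 in rrm3 (57.2%, 51.7% to 62.6%; 48.0% over all), 191 in sen1rrm3 (57.5%, 52.0% to 62.9%; 48.6% over all) and 148 in WT (44.6%, 39.2% to 50.1%; 40.8% over all). The rrm3 and sen1rrm3 intervals lay above the share over all peaks, and the WT interval included it. In sen1 the share over all peaks stood at the lower bound of the interval. Most of all WT peaks are narrower ones, whose start-side edges lay further inside genes, so these shares do not compare like positions. At the 248 end-side edges the counts were 124 in sen1 (50.0%; 46.3% over all), 113 in rrm3 (45.6%; 42.7% over all), 119 in sen1rrm3 (48.0%; 44.9% over all) and 78 in WT (31.5%; 32.2% over all). There the intervals, such as 43.6% to 56.4% in sen1 and 25.7% to 37.6% in WT, included the shares over all peaks, and end-side edges of wide domains were near the background. Both edges of a domain are counted, so edges are not independent of each other.

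Relative cover within 250 bp of start-side edges was 1.56 in sen1, 1.66 in rrm3, 1.60 in sen1rrm3 and 1.72 in WT. For narrower Rpb1 peaks it was 1.35, 1.28, 1.25 and 1.47 in the same order of strains. At end-side edges of wide domains it was 1.29 in sen1, 1.30 in rrm3, 1.31 in sen1rrm3 and 1.08 in WT. Moving outward from the start-side edge, cover was highest at 150 bp outside in sen1 (1.68), 350 bp in rrm3 (1.91), 250 bp in sen1rrm3 (1.72) and 650 bp in WT (2.10), read in bins of 100 bp.

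**Figure D4:**
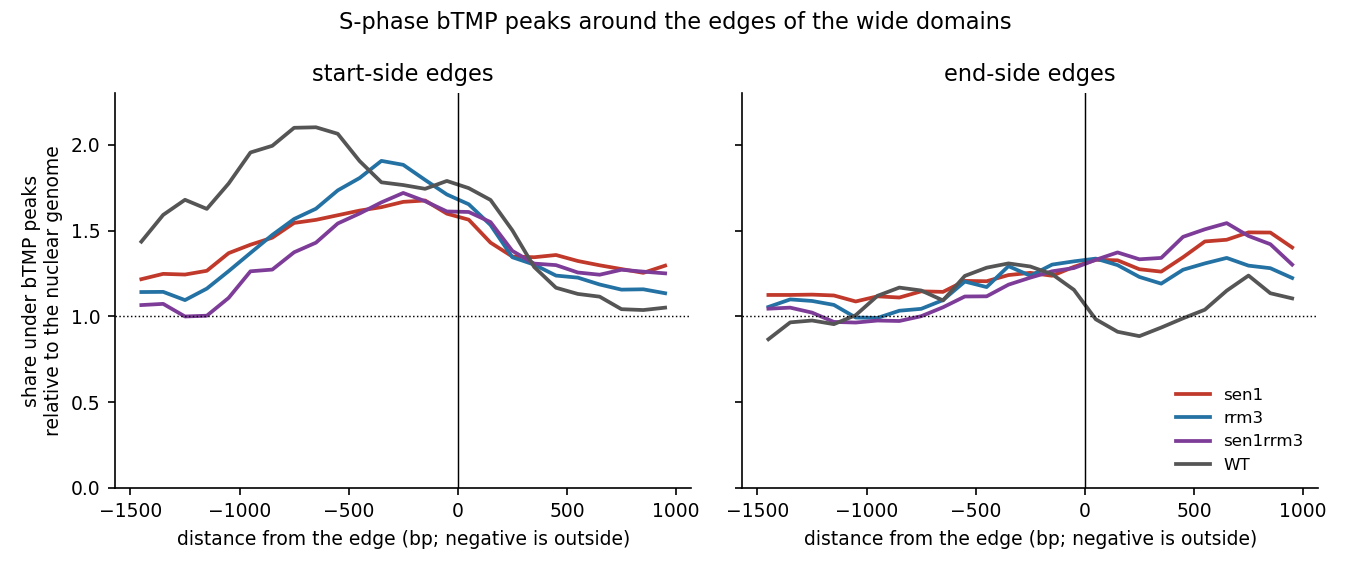
Relative bTMP cover in S phase around the 332 start-side and 248 end-side edges of wide domains in sen1, rrm3, sen1rrm3 and WT (share of base pairs under bTMP peaks divided by the nuclear genome share, in bins of 100 bp). The horizontal axis is the distance from the edge in bp, negative outside the domain, and the dotted line is the genome level. At start-side edges the highest value of each line lies outside the domain, at 1.68 in sen1, 1.91 in rrm3, 1.72 in sen1rrm3 and 2.10 in WT.

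The preference for start-side edges was also present outside S phase. Over all 20 bTMP lists, relative cover at start-side edges of wide domains ranged from 1.27 to 2.01 with a median of 1.58. It was above the end-side value and above the interior value in 19 lists each. It was above that at start-side edges of narrower peaks in 20, but those edges had a median offset of -292 bp, further inside genes. Without the 22 domains over long unnamed reading frames, start-side relative cover was above 1 in 20 lists (1.10 to 2.11, median 1.41). It was above the end-side value in 20 and above the interior value in 20. The median over the lists at narrower peaks was 1.29. In sen1rrm3top1 the value without the 22 was 1.10, below the 1.21 at narrower peaks. The end-side value (median 1.18) was above the interior value (median 0.864) in 20 lists as well.

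Along the 175 domains with 1 gene, the long unnamed reading frames left out, cut into 10 equal parts in the direction of transcription, relative cover was highest in the first part in 20 of 20 lists. Its median over the lists was 1.38 in part 1, 0.767 in part 2, 0.735 in part 6 and 1.07 in part 10. In S phase, part 1 had 1.28 in sen1, 1.39 in rrm3, 1.34 in sen1rrm3 and 1.58 in WT. Part 4 had 0.994 in sen1, 0.828 in rrm3, 1.08 in sen1rrm3 and 0.690 in WT. Cover was thus lower in part 4 than in part 1 in each strain. Part 4 was the lowest of the 10 parts in WT, so the size of this gap is not compared between strains.

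Inside the domains, an interior bTMP peak was present in 73.5% of the 291 in sen1, 68.7% in rrm3, 77.7% in sen1rrm3 and 59.1% in WT. Over all WT Rpb1 peaks with an interior, the shares were 54.1%, 48.7%, 53.4% and 42.9% in sen1, rrm3, sen1rrm3 and WT. A wider interior offers more room for a peak, so the counts are not comparable by length. Relative cover of the interior accounts for length and was 1.33 in sen1, 1.23 in rrm3 and 1.34 in sen1rrm3, against 1.00 in WT. Without the 22 domains over long unnamed reading frames it was 1.09 in sen1, 0.949 in rrm3 and 1.09 in sen1rrm3, against 1.02 in WT, so most of that difference came from the 22.

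The domains differed widely among themselves. bTMP peaks covered a median of 27.8% of a domain in sen1, 19.8% in rrm3 and 27.2% in sen1rrm3, against 12.0% in WT. No bTMP lay in 56 domains in sen1, 62 in rrm3, 45 in sen1rrm3 and 99 in WT, while 30, 26, 28 and 4 domains were covered at 90% or more in the same order. Of the domains covered at 90% or more, 17, 15, 17 and 0 were over long unnamed reading frames. In 146 domains there was some bTMP in all 4 lists, and in 12 there was none in any. The cover was higher in the mutant than in WT for 184 domains and lower for 66 in sen1, 165 and 96 in rrm3, and 187 and 79 in sen1rrm3. Between sen1rrm3 and rrm3, 161 were higher in sen1rrm3 and 80 lower, with a median difference of 0.306 percentage points. S-phase bTMP peaks covered more of the whole genome in each mutant than in WT, and more in sen1rrm3 than in rrm3. Nothing is therefore read from the counts of domains higher or lower.

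At the 22 domains over long unnamed reading frames, S-phase bTMP separated the mutants from WT without overlap. Cover ranged from 78.4% to 100% in sen1 (median 100%), from 63.0% to 100% in rrm3 (median 98.8%) and from 71.6% to 100% in sen1rrm3 (median 100%), against 0% to 35.7% in WT (median 12.6%). Over all 291 wide domains, cover reached at least 50% in 86 in sen1, 65 in rrm3, 75 in sen1rrm3 and 32 in WT. The 22 were split off after values had been seen, so the lack of overlap is a description only. The frames resemble each other in length and may share reads, so these are not 22 independent observations. The pattern was not the same in the other conditions. In log phase their interiors were covered at 20.5% in sen1, 50.4% in rrm3 and 56.5% in sen1rrm3, against 0% in WT. Log-phase bTMP peaks covered only 8.8%, 10.2%, 8.4% and 8.3% of the nuclear genome in sen1, rrm3, sen1rrm3 and WT. Relative cover of these interiors in log phase was 2.32 in sen1, 4.96 in rrm3 and 6.74 in sen1rrm3, against 0 in WT. In S phase it was 3.72 in sen1, 4.03 in rrm3 and 3.86 in sen1rrm3, against 0.854 in WT. At 32 °C they were covered at 99.0% in sen1, 20.8% in rrm3 and 94.6% in sen1rrm3, against 33.8% in WT. As relative cover of the interior this was 3.9 in sen1, 2.5 in rrm3 and 3.8 in sen1rrm3, against 3.3 in WT. The 32 °C bTMP peaks had median widths of 685, 253, 606 and 262 bp in sen1, rrm3, sen1rrm3 and WT. They covered 25.7%, 8.19%, 25.0% and 10.2% of the nuclear genome in that order. The part of these list differences in the raw percentages was not tested. With top2-1 at 32 °C the percentages of the interiors covered were 15.4% in sen1top2-1, 29.8% in rrm3top2-1 and 29.3% in sen1rrm3top2-1, against 31.8% in top2-1. As relative cover these were 2.20, 3.17 and 3.23, against 3.13. With top1 in log phase the percentages were 13.9% in sen1top1, 31.9% in rrm3top1 and 68.8% in sen1rrm3top1, against 4.40% in top1. As relative cover these were 1.21, 3.38 and 6.36, against 0.377.

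**Figure D5:**
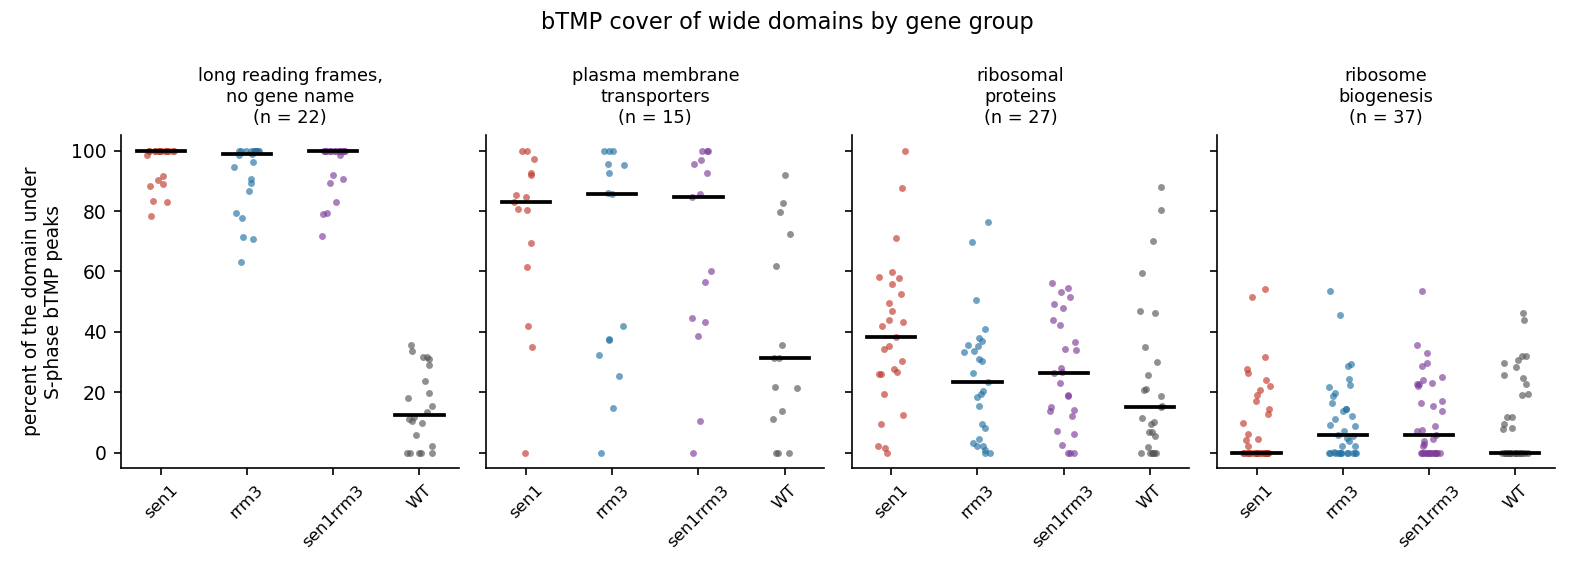
Percent of each wide domain under S-phase bTMP peaks in sen1, rrm3, sen1rrm3 and WT, for domains over long reading frames without a gene name (22), plasma membrane transporters (15), ribosomal protein genes (27) and ribosome biogenesis genes (37). Points are domains, spread sideways for legibility, and bars are medians; the first group lies at 63.0% or more in each mutant and at 35.7% or less in WT.

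Among named genes, domains over plasma membrane transporters had high bTMP cover. Their 15 domains had medians of 83.0% in sen1, 85.8% in rrm3 and 84.6% in sen1rrm3, against 31.2% in WT, with 0% to 100% in each mutant and 0% to 91.9% in WT. The polyamine transporter gene TPO2, which is not on that list, was covered at 100% in sen1, rrm3, sen1rrm3 and WT. Other transporter genes off the list were lower, and each shared its domain with a ribosomal protein gene. PTR2 had 43.2% in sen1, 9.6% in rrm3 and 7.2% in sen1rrm3, against 6.87% in WT. HNM1 had 30.5% in sen1, 33.3% in rrm3 and 33.8% in sen1rrm3, against 15.2% in WT. On the list, FUI1 had 34.9% in sen1, 37.8% in rrm3 and 10.4% in sen1rrm3, against 31.2% in WT. The hexose transporter gene HXT3 had 92.6% in sen1, 92.7% in rrm3 and 92.6% in sen1rrm3, against 91.9% in WT. PMA1, the proton pump of the plasma membrane (VII, 479044 to 483025), had 80.6% in sen1, 95.5% in rrm3 and 95.5% in sen1rrm3, against 79.8% in WT. MUP1, a methionine permease, had 84.7% in sen1, 86.0% in rrm3 and 84.6% in sen1rrm3, against 0% in WT. FET3 had 0% in sen1, rrm3, sen1rrm3 and WT.

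Ribosome biogenesis domains stood at the other end. Their 37 domains had medians of 0% in sen1, 5.91% in rrm3 and 5.92% in sen1rrm3, against 0% in WT, and 20, 12, 14 and 20 of them had no bTMP in sen1, rrm3, sen1rrm3 and WT. The 11 domains of aminoacyl-tRNA synthetases were also low, with medians of 6.39% in sen1, 0% in rrm3 and 5.00% in sen1rrm3, against 0.963% in WT. The 7 domains of glycolysis and fermentation were covered at medians of 64.3% in sen1, 50.7% in rrm3 and 48.7% in sen1rrm3, against 65.8% in WT. The 27 domains with ribosomal protein genes had 38.4% in sen1, 23.3% in rrm3 and 26.5% in sen1rrm3, against 15.2% in WT. The median over all 291 domains was 27.8%, 19.8%, 27.2% and 12.0% in sen1, rrm3, sen1rrm3 and WT.

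Of the widest domains, FKS1 had bTMP in all 4 lists, with 35.7% in sen1, 41.4% in rrm3 and 39.6% in sen1rrm3, against 9.42% in WT. RPG1 with ECM33 had 28.1% in sen1, 29.8% in rrm3 and 31.5% in sen1rrm3, against 25.4% in WT. FAS1, the widest, had bTMP in sen1rrm3 alone, at 9.29%. URA2 had 3.19% in sen1, 6.82% in rrm3 and 27.9% in sen1rrm3, against 0% in WT.

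In 14 domains both edges had a bTMP peak in all 4 S-phase lists, the widest being YGR027W-B, YPL257W-B, YPR137C-B, PMA1, HPF1 and HSP150, of which the last 2 are named for cell wall or secreted glycoproteins. In 8 domains neither edge nor inside had one in any of the 4. These were RRP5, UTP20 (II, 227837 to 230470), NOP7 and UTP9 of ribosome assembly, the tRNA synthetase genes MES1 and GLN4, RLI1, which splits ribosomes for reuse, and VTC2. In 11 domains at least 50% lay under bTMP in all 4 lists, among them PMA1, HXT3, TPO2, the amino acid permease genes AGP1 and BAP3, and the glycolysis genes PFK2 and CDC19.

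Rpb1 width and bTMP were set side by side. The 31 domains wider in sen1 had a median bTMP cover of 62.7% in sen1, against 11.7% in WT. The 25 narrower or absent in sen1 had 5.84% in sen1, against 0% in WT, and the 235 within 500 bp had 27.8% in sen1, against 13.3% in WT. In sen1rrm3 the 26 wider domains had 55.6% in sen1rrm3, against 11.4% in WT, and the 25 narrower or absent had 18.2%, against 0% in WT. Of the domains wider in sen1 or in sen1rrm3, 11 in each strain were long unnamed reading frames, whose bTMP cover was at least 63.0% in each mutant, and their part in this difference was not tested.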

How the data were processed

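For 24 of the 48 samples the authors deposited a peak list, 1 per library, giving each peak's position, name and score. What this deposited score measures is not stated by any source used here, and it served only to rank peaks within a list. The submitters' processing notes name Bowtie2, Picard, SAMtools and deepTools without version numbers. No source used here names the peak caller or genome build, and read depth is unknown. Mitochondrial peaks were left out. All groups were taken from the labels.

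Genes came from a RefSeq table of assembly R64, used for names, lengths and neighbours only. Its fit to the peaks was checked on ribosomal protein genes, whose cover by WT Rpb1 peaks was 99.4% at shifts of -30 to 60 bp, 79.7% at -400 bp and 85.5% at 400 bp. Printed coordinates are those of the peaks, counted from 1.

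Widths, extents, edges and cover were computed with Python 3.11.15, pandas 2.3.3, numpy 2.4.6 and scipy 1.17.1, with figures from matplotlib 3.10.9, and the interval arithmetic was tested on simulated data. Intervals are exact (Clopper-Pearson) and cover counting error only. With 1 library per group no test was run. The domains, gene lists and settings were chosen with earlier results of these data known. Domains named are the 10 widest, the 6 largest changes each way per mutant and for sen1rrm3 against rrm3, the 3 on each side of the threshold, the 5 with the most genes, up to 6 with bTMP at both edges in all S-phase lists or none at all, and up to 4 members per gene list; not all of these are printed. YBL005W-B, RPO21, URA2, FET3, MUP1, TPO2, NOP7, UTP9, the remaining transporters and the domains with at least 50% bTMP were also named after their values were seen. Alternatives were other width, change and window sizes, other ways of matching peaks, and the upper 50% of peaks by score.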

Additional observations from a re-analysis of the deposited data

Results flagged for a closer look

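At 3 wide domains the sen1 lists moved in opposite directions on the 2 RRM3 backgrounds by at least 500 bp each way, a difference that was not tested because each group has 1 library. At CSS1 (IX, 23353 to 26832) the extent was 2678 bp in sen1 and 3480 bp in WT, a difference of -802 bp, and 4670 bp in sen1rrm3 and 3582 bp in rrm3, a difference of 1088 bp; the sen1 extent held 2 peaks, with a single peak of 1204 bp. At YML039W the differences were 1837 bp (sen1 minus WT) and -1626 bp (sen1rrm3 minus rrm3). With the upper 50% of peaks by score there was no peak in rrm3 at YML039W, and sen1rrm3 minus rrm3 turned to 3846 bp, the same direction as in sen1. At YDR365W-B they were 2371 bp and -1640 bp. YML039W and YDR365W-B are long unnamed reading frames, for which reads could be shared between near-identical copies.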

How the results depend on the processing

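No paired analysis was possible because each group has 1 library. Read depth, the peak caller and its settings are unknown, and their part in widths and peak numbers was not tested. Rpb1 and bTMP come from different libraries, and a peak list holds no values between peaks.

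The number of domains was 531 at a threshold of 1500 bp and 93 at 3000 bp. With a change of at least 1000 bp, 18 were wider and 9 narrower in sen1, 4 were wider in rrm3, 17 were wider and 6 narrower in sen1rrm3, and 14 were wider and 9 narrower in sen1rrm3 than in rrm3. For domains of 3000 bp or more the counts were 10 wider and 7 narrower in sen1, 3 and 0 in rrm3, 9 and 5 in sen1rrm3, and 8 and 10 in sen1rrm3 against rrm3. By the single mutant peak sharing most with a domain, 80 were narrower in sen1, 30 in rrm3, 69 in sen1rrm3 and 62 in sen1rrm3 against rrm3. With mutant peaks that share at least 50% of their own or of the domain's length, 3 were narrower in rrm3. With the upper 50% of mutant peaks by score, 38 were narrower in sen1 and 39 in sen1rrm3, and 5 were wider and 13 narrower in rrm3. Without the long unnamed reading frames, an alternative chosen after seeing the data, 20 were wider in sen1, 5 in rrm3, 15 in sen1rrm3 and 15 in sen1rrm3 against rrm3.

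Among named changes, GIC1 in sen1 turned to -1187 bp, and ILV3 turned to -818 bp in sen1, -834 bp in sen1rrm3 and -890 bp in sen1rrm3 against rrm3, both by the single peak and by peaks sharing at least 50%, since each extent held 2 peaks. DIP2 in rrm3 turned to -1441 bp and -629 bp by these readings. With the upper 50% of peaks by score, YML039W turned to -3477 bp in rrm3 and 3846 bp in sen1rrm3 against rrm3; the cause was not tested.

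Shares of start-side edges with a bTMP peak in sen1, rrm3, sen1rrm3 and WT were 68.1%, 67.8%, 69.9% and 55.4% with a window of 500 bp, 47.0%, 47.0%, 47.6% and 35.8% with 100 bp, and 42.2%, 34.0%, 43.1% and 29.5% with the upper 50% of bTMP peaks by score. End-side shares in that order were 64.1%, 61.3%, 64.9% and 42.3% with 500 bp, 40.7%, 37.9%, 39.9% and 24.2% with 100 bp, and 32.7%, 26.6%, 32.7% and 16.5% with the upper 50%. For domains of 3000 bp or more, the start-side share was 63.1% in rrm3 and the end-side share 40.0% in sen1rrm3. Interior cover with the upper 50% of bTMP peaks was 25.0%, 14.4%, 22.3% and 10.0% in sen1, rrm3, sen1rrm3 and WT, and without the long unnamed reading frames 28.4%, 22.1% and 26.8% in sen1, rrm3 and sen1rrm3. In each strain and each of these window and score settings the start-side share was above the end-side share.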

Other observations

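Several domains that narrowed belong to iron uptake, so a list of 33 iron genes was drawn up after those values had been seen, and its values are a description only. Mean Rpb1 cover of their gene bodies was 29.5% in sen1, 35.8% in rrm3 and 23.9% in sen1rrm3, against 40.4% in WT. Cover was lower than in WT by at least 10 percentage points for 9 of the 33 genes in sen1, 7 in rrm3 and 12 in sen1rrm3. It was higher by at least as much for 2, 0 and 1. Over all protein-coding genes a drop of that size befell 9.78%, 5.76% and 11.3% in sen1, rrm3 and sen1rrm3. Genes that prompted the list are among those counted in sen1 and sen1rrm3, so nothing is read from the contrast with all genes.

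SIT1 had 19.9% of its body covered in sen1, 92.7% in rrm3 and 0% in sen1rrm3, against 91.9% in WT. SMF3 had 13.5% in sen1, 100% in rrm3 and 15.3% in sen1rrm3, against 94.2% in WT. FRE1, a ferric reductase gene, had 100% in sen1, rrm3, sen1rrm3 and WT. SMF2, another metal transporter gene, went the other way, with 91.5% in sen1, 34.5% in rrm3 and 92.3% in sen1rrm3, against 53.0% in WT.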
